A study of Mus musculus with 49 samples.

Results

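Skin that had been treated with imiquimod (IMQ) under an antibody to IL-12p40 was set against skin treated with water, to see which transcripts still differed from uninflamed skin while the antibody was given. The 10 libraries were chosen by their treatment labels: 7 carried the label for IMQ with an anti-mouse IL-12p40 antibody and 3 the label for PBS and water. They are 10 of 49 libraries in the series and 10 of 23 from skin, where 6 PBS-injected IMQ libraries and 7 libraries given IMQ and an anti-human IL-36R antibody make up the rest. All 4 skin groups came from DITRA-like mice on a mixed background of 75% C57BL/6NTac and 25% 129S6/SvEvTac, so the water controls carried the same model. The labels give no allele, age, sex, dose or day of sampling, and no group without the DITRA background was among the samples. The labels do not state that each library came from its own animal, so the p-values measure the spread between these libraries, which may in part be technical.

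IL-12p40 is the subunit shared by IL-12 and IL-23, and an antibody to it blocks both cytokines. IL-23 maintains T cells that make IL-17 and IL-22, and in psoriasis-like skin those cytokines drive keratinocytes to divide, to make antimicrobial proteins and neutrophil chemokines, and to put off the final steps of cornification. IMQ is an agonist of Toll-like receptor 7 that starts such an inflammation in mouse skin. DITRA is a human disease caused by loss of the IL-36 receptor antagonist, in which IL-36 signalling in epithelium is too strong.

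The libraries were of similar depth, with totals of 14723200 to 19678074 expected counts in the anti-IL-12p40 group, 14819986 to 19087278 in the PBS IMQ group and 15551403 to 17239151 in the water group. Levels are given as CPM, the counts scaled to a common library size, and a gene was called at an adjusted p under 0.05 in edgeR's quasi-likelihood test over all 15345 genes tested. On the first principal component, which held 35.2% of the variance, the anti-IL-12p40 libraries lay between -5.59 and 28.7, the PBS IMQ libraries between -35.1 and -24.1, and the water libraries between 27.8 and 46.6. Anti-IL-12p40 replicate 5 stood apart from the other 6 on several myeloid and chemokine genes, and replicate 2 on hair and pigment genes. In the labels the anti-IL-12p40 libraries carry a run of title numbers of their own, and if that run marks a batch, it cannot be told apart from the treatment.

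**Figure D1:**
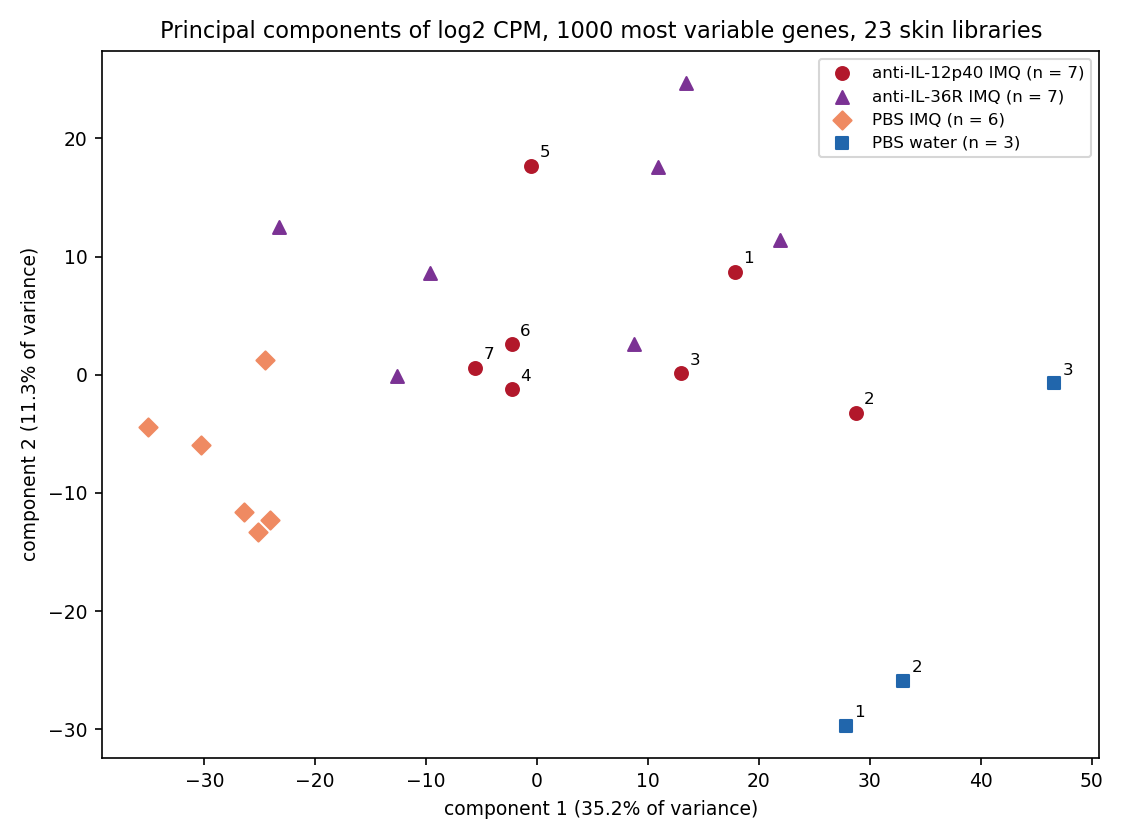
Principal components of log2 CPM over the 1000 most variable genes in 23 skin libraries, with the first on the horizontal axis (35.2% of variance) and the second on the vertical axis (11.3%). Each point is 1 library, and the numbers are replicate names. The 7 anti-IL-12p40 libraries lie between the PBS IMQ libraries at the left and the water libraries at the right, with replicate 2 past the lowest of the water libraries on the first component.

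Against water, 737 of 15345 genes were called in skin under anti-IL-12p40 (4.8%), 370 of them higher (2.41%) and 367 lower (2.39%). With a change of at least 2-fold as well, 144 were higher (0.938%) and 155 lower (1.01%). The libraries of the groups did not overlap for 1448 genes (9.44%), with anti-IL-12p40 above water in 787 (5.13%) and below it in 661 (4.31%). For PBS IMQ skin the same 3 water libraries gave 5061 calls (33.0%). Between anti-IL-12p40 and PBS IMQ skin, a comparison from which the water libraries drop out, 1351 genes differed (8.8%), 816 of them higher (5.32%) and 535 lower (3.49%) under the antibody. The count against water rested heavily on 1 library: without water replicate 1 it was 123, and over the 10 libraries left out in turn it ran up to 1155, which was reached without anti-IL-12p40 replicate 2. Of the 737 genes, 65 were called in the same direction under all 15 alternatives tried, 40 higher and 25 lower.

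**Figure D2:**
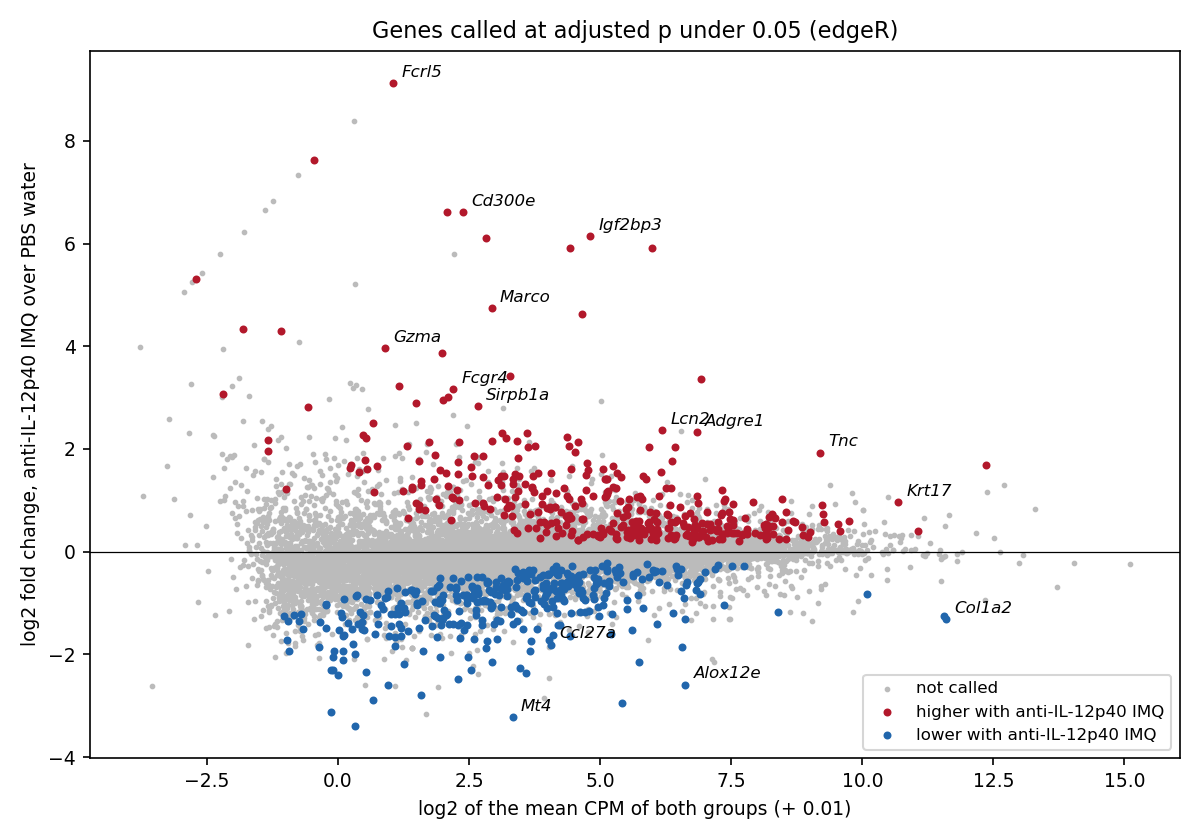
Log2 fold change of anti-IL-12p40 IMQ over PBS water skin (vertical axis) against the log2 of the mean CPM of both groups (horizontal axis) for the 15345 genes tested, 1 point a gene. The genes called at adjusted p under 0.05 are 370 higher (red) and 367 lower (blue). Fcrl5 had no count in the water libraries, so its position depends on the count the fit adds.

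Monocyte and macrophage markers were the list with the most genes called higher than in water skin. Of 20 marker genes tested, 7 were higher under anti-IL-12p40 (Adgre1, Itgam, Cd300e, Fcgr4, Marco, Chil3 and Ms4a7) and none was lower. The share called was 35.0%, against 4.8% over all genes. The median log2 fold change was 1.08, against a median of 0 over all genes. The summed level of the list was 1170 to 2290 CPM in anti-IL-12p40 skin, 1110 to 1900 CPM in PBS IMQ skin and 836 to 1250 CPM in water skin. Without water replicate 1, 3 of the 20 were called. Without water replicate 3, without anti-IL-12p40 replicate 2, or by DESeq2's Wald test, 11 were called. In whole skin, more cells of a type and more RNA per cell cannot be told apart.

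Adgre1, which encodes the macrophage surface protein F4/80 (chromosome 17, 57358581 to 57483529, GRCm38.p6), had 117 to 373 CPM with a median of 175 in anti-IL-12p40 skin, 76.9 to 266 CPM with a median of 229 in PBS IMQ skin, and 28.7, 32.9 and 53.0 CPM in water skin. Every anti-IL-12p40 library lay above every water library, and the highest of them was replicate 5. The log2 fold change from water was 2.33 ± 0.39 (SE; adjusted p = 0.00344). Against PBS IMQ skin it was -0.09 (adjusted p = 0.874).

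Fcgr4 encodes an activating receptor for IgG on monocytes and neutrophils (chromosome 1, 171018926 to 171029761). Its level was 4.65 to 15.8 CPM, median 6.77, in anti-IL-12p40 skin, 5.02 to 20 CPM, median 14.7, in PBS IMQ skin, and 0.654, 0.397 and 1.63 CPM in water skin. It was 8.97-fold higher than in water (log2 fold change 3.16 ± 0.52; adjusted p = 0.00276), and the groups did not overlap. Itgam, the alpha chain of the integrin Mac-1 (chromosome 7, 128062640 to 128118491), had 91.0 to 262 CPM, median 128, in anti-IL-12p40 skin and 23.3, 21.7 and 57.3 CPM in water skin. Its log2 fold change was 2.03 ± 0.39 (adjusted p = 0.00716), and the call was lost only without water replicate 1.

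The proximal promoters of Itgam and Fcgr4 are shown because both genes were higher than in water skin, and because the factor PU.1 is a known regulator of myeloid genes. The windows run from 250 bases before to 50 bases after the annotated start, 5′ to 3′ on the gene's strand, from RefSeq (GRCm38.p6). Both are on the plus strand, Itgam at chr7:128062390-128062689 and Fcgr4 at chr1:171018676-171018975. Capitals mark GAGGAA, the core of the PU.1 motif, or TTCCTC, the same letters on the other strand.
Itgam: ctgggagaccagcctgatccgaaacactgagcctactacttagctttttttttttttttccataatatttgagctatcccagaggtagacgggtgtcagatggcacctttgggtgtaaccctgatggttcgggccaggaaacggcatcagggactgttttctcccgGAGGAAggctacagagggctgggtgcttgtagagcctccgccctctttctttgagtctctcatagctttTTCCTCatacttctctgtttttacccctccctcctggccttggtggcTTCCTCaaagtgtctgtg
Fcgr4: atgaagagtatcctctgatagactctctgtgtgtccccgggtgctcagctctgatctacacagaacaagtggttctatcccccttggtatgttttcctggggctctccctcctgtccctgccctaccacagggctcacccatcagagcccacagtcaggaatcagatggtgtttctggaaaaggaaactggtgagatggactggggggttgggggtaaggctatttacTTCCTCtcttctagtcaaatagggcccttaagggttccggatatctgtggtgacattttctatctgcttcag

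Itgam held 3 such matches, starting 84 and 15 bases before the annotated start and at base 33 after it, and Fcgr4 held 1, starting 22 bases before it. Of the 7 macrophage genes called higher, 6 had a window and 4 of these held a match. So did 3 of the 4 neutrophil genes and 1 of the 2 antimicrobial genes called higher. Over all 32851 promoter windows, 28.3% held one. A gene counted if any of its windows held a match, so gene counts and the share of windows are unlike measures. A match of these letters is a description of the window and no evidence of binding.

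Cd300e, an activating receptor of monocytes, was close to absent from water skin and present in every IMQ library. It had 2.09 to 22.6 CPM, median 10.2, in anti-IL-12p40 skin, 7.12 to 23 CPM, median 14.5, in PBS IMQ skin, and 0.163, 0.0662 and 0.0563 CPM in water skin (log2 fold change from water 6.62 ± 0.94; adjusted p = 0.00112). The call was lost under limma-voom. Marco, a scavenger receptor of macrophages, had 4.14 to 24.7 CPM in anti-IL-12p40 skin, 0.543 to 19.2 CPM in PBS IMQ skin and 0.327, 0.331 and 0.958 CPM in water skin (log2 fold change 4.74 ± 0.95; adjusted p = 0.00865). That call was lost under limma-voom and without water replicate 1. Chil3, a chitinase-like protein of activated macrophages, ranged widely, at 4.04 to 112 CPM in anti-IL-12p40 skin against 1.25, 0.198 and 0.563 CPM in water skin, and its call was lost under 3 of the 15 alternatives.

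Among genes outside the list that were named for their small p-values, several encode paired immune receptors of myeloid cells. Sirpb1a, a signal-regulatory protein, had 8.23 to 18.2 CPM in anti-IL-12p40 skin, 6.99 to 28.1 CPM in PBS IMQ skin and 1.58, 1.26 and 1.80 CPM in water skin (log2 fold change 2.84 ± 0.36; adjusted p = 0.000456). Its neighbour and near copy Sirpb1b gave a log2 fold change of 2.95 ± 0.43 (adjusted p = 0.00143). The 2 genes share sequence, so how reads were divided between them is uncertain. Lst1 (log2 fold change 1.86), Pilra (1.64), both inhibitory regulators of leukocytes, and Tlr13 (1.82), a receptor for bacterial ribosomal RNA, were also higher, with adjusted p-values of 0.00242, 0.00242 and 0.00231. Sirpb1a, Sirpb1b, Lst1, Pilra, Tlr13, Adgre1 and Fcgr4 were called under all 15 alternatives.

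**Figure D3:**
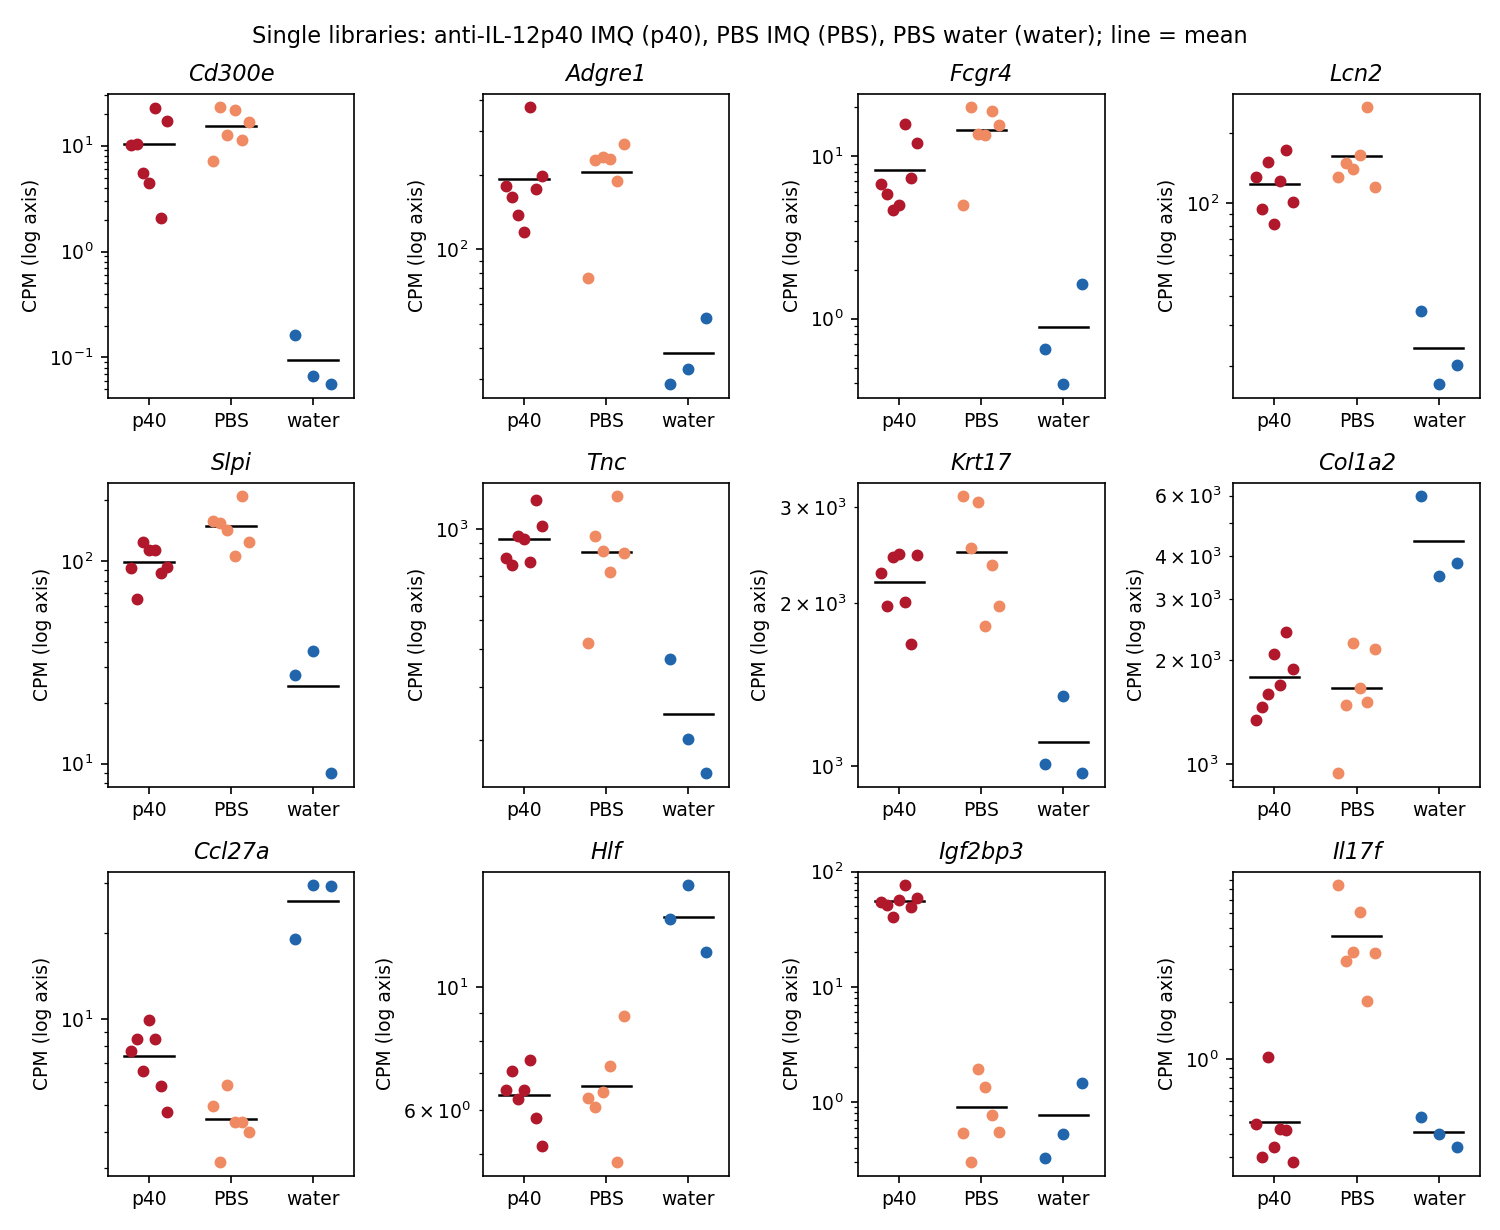
CPM of 12 genes in each library on log axes, with anti-IL-12p40 IMQ skin (7 points), PBS IMQ skin (6) and PBS water skin (3) from left to right and the group mean as a line. In the upper and middle rows the anti-IL-12p40 libraries lie above water from Cd300e to Krt17 and below water for Col1a2. In the lower row they lie below water for Ccl27a and Hlf, far above both other groups for Igf2bp3, and at 0.283 to 1.02 CPM for Il17f, a range that holds the 3 water libraries.

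Of 18 neutrophil genes tested, 4 were higher than in water skin (Csf3r, Fpr1, Fpr2 and Clec4d) and none was lower. The share called was 22.2%, against 4.8% over all genes, and the median log2 fold change was 1.92. Between anti-IL-12p40 and PBS IMQ skin 4 of the 18 were lower and none was higher, against 3.49% lower and 5.32% higher over all genes. Csf3r, the receptor for G-CSF, had 16.9 to 92.2 CPM in anti-IL-12p40 skin, 19.7 to 94.0 CPM in PBS IMQ skin and 9.32, 6.15 and 10.8 CPM in water skin (log2 fold change from water 2.14 ± 0.51; adjusted p = 0.0205). Without water replicate 1, and also under limma-voom, 0 of the 18 were called, without water replicate 2, 1, and by DESeq2's Wald test, 8. The neutrophil marker Ly6g was too low to test. It had 24 counts over the 7 anti-IL-12p40 libraries, most of them in 1 library at 1.31 CPM. The 3 water libraries had 0 counts, where 3 counts would be 0.0586 CPM.

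The calprotectin subunits S100a8 and S100a9, abundant in neutrophils and in activated keratinocytes, did not pass the test against water. S100a9 had 593 to 3270 CPM, median 1960, in anti-IL-12p40 skin, 5200 to 11200 CPM in PBS IMQ skin and 1530, 1030 and 218 CPM in water skin. The log2 difference from water was 1.07 with a 95% interval of 0.01 to 2.12 (adjusted p = 0.211), and from PBS IMQ skin -1.91 (adjusted p = 0.00576). S100a8 gave 0.97 from water (adjusted p = 0.235) and -1.68 from PBS IMQ skin (adjusted p = 0.00886). Neither gene was picked by the naming rule; they were named with their values known.

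Lcn2 and Slpi were the antimicrobial genes that stayed higher, 2 of 19 tested, with none lower (10.5%, against 4.8% over all genes). Lcn2, the iron-scavenging lipocalin-2 (chromosome 2, 32384637 to 32387739), had 81.3 to 170 CPM, median 125, in anti-IL-12p40 skin, 118 to 259 CPM, median 145, in PBS IMQ skin, and 34.3, 16.7 and 20.2 CPM in water skin. Its log2 fold change from water was 2.36 ± 0.37 (adjusted p = 0.00231). Slpi, an inhibitor of neutrophil elastase (chromosome 2, 164354070 to 164356507), had 64.8 to 125 CPM, median 93.6, in anti-IL-12p40 skin, 106 to 209 CPM in PBS IMQ skin and 27.4, 36.1 and 9.01 CPM in water skin (log2 fold change 2.03 ± 0.40; adjusted p = 0.00865). Neither gene overlapped between anti-IL-12p40 and water skin, and both were called under all 15 alternatives. Against PBS IMQ skin the log2 differences were -0.39 for Lcn2 (adjusted p = 0.357) and -0.59 for Slpi (adjusted p = 0.199).

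Against PBS IMQ skin, 6 of the 19 antimicrobial genes were lower under the antibody, 1 was higher and 12 did not pass the test. Over all genes, 3.49% were lower and 5.32% higher in that comparison. Defb3, an inducible beta-defensin, had 9.31 to 37.9 CPM in anti-IL-12p40 skin, 38.4 to 218 CPM in PBS IMQ skin and 11.3, 7.08 and 1.24 CPM in water skin. Its log2 difference was -2.43 from PBS IMQ skin (adjusted p = 0.00562) and 1.62 from water (95% interval 0.18 to 3.07; adjusted p = 0.167); it was named with its values known.

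The windows of Lcn2 and Slpi, the 2 antimicrobial genes that stayed higher, are shown with the motif TTGCNNAA, the letters bound by C/EBP factors, which regulate many acute-phase and antimicrobial genes. Both genes are on the minus strand, and the windows are Lcn2 at chr2:32387690-32387989 and Slpi at chr2:164356458-164356757. Capitals mark the match on either strand.
Lcn2: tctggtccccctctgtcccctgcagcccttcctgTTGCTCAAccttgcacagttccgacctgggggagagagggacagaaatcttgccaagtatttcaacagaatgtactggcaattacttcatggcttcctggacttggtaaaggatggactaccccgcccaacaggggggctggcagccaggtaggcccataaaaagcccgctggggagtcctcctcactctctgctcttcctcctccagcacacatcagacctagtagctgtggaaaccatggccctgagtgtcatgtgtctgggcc
Slpi: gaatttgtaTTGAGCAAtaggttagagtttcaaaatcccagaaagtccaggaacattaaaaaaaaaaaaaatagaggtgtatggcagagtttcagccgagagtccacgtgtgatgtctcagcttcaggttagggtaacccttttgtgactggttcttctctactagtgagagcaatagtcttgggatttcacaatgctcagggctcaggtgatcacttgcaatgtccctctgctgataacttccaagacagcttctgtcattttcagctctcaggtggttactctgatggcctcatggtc

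Each window held 1 match, starting 216 bases before the start in Lcn2 and 241 bases before it in Slpi. The motif was found in 10.8% of all 32851 windows. It was in no window of the 6 macrophage genes called higher that had one, and in none of the 4 neutrophil genes. No match says only that those letters are not in the window.

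The IL-17 and IL-22 cytokines downstream of p40 gave no call against water apart from Il17c. Il17f, made by IL-17-type T cells, had 0.283 to 1.02 CPM, median 0.418, in anti-IL-12p40 skin, 2.03 to 8.41 CPM, median 3.67, in PBS IMQ skin, and 0.490, 0.397 and 0.338 CPM in water skin. The log2 difference from water was 0.19 with a 95% interval of -1.21 to 1.60 (adjusted p = 0.894), so a change of up to about that size was not detectable at this depth. From PBS IMQ skin it was -3.25 (adjusted p = 0.000573). Il22, which acts on keratinocytes, summed to 2 counts over the 7 anti-IL-12p40 libraries and 7 counts over the 3 water libraries, and had 0.426 to 3.26 CPM in PBS IMQ skin (log2 difference from PBS IMQ -5.95; adjusted p = 0.00412). Il17a summed to 14 counts in each of those 2 groups, and gave a log2 difference from PBS IMQ skin of -2.89 (adjusted p = 0.00931).

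Upstream, the transcripts of the antibody's own target and its partner did not pass the test. Il12b, which encodes p40, had 0.120 to 1.96 CPM in anti-IL-12p40 skin and 0.545, 0.463 and 1.52 CPM in water skin (log2 difference 0.14, 95% interval -1.22 to 1.51; adjusted p = 0.921). Il23a, which encodes the p19 subunit of IL-23, had 0.538 to 1.95 CPM in anti-IL-12p40 skin, 0.731 to 5.97 CPM in PBS IMQ skin and 0.436, 0.529 and 0.169 CPM in water skin; the groups did not overlap, yet the log2 difference from water of 1.81 did not pass (adjusted p = 0.177). An antibody acts on the protein, so these levels do not measure the block.

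Of the 19 tested genes of the axis, Il17c was called higher than in water, as were 2.41% of all genes. Il17c, an IL-17 cytokine made by epithelium, had 1.14 to 4.81 CPM in anti-IL-12p40 skin, 1.22 to 11 CPM in PBS IMQ skin and 0.599, 0.662 and 0.169 CPM in water skin (log2 fold change 2.5 ± 0.66; adjusted p = 0.0325), a call lost under 6 of the 15 alternatives. Of the 8 tested genes of IL-17-type gamma delta T cells, Cd163l1 and Blk were lower than in water and none was higher. Over all genes, 2.39% were called lower. The median log2 fold change of the 8 was -0.65, and neither Cd163l1 nor Blk was called without water replicate 3. The other 6 listed genes, receptor gene segments among them, were not analysed here.

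The IL-36 and IL-1 family added 1 call of 16 tested (6.25%, against 4.8% over all genes). Il33, an alarmin stored in epithelial nuclei, had 65.6 to 171 CPM in anti-IL-12p40 skin, 199 to 366 CPM in PBS IMQ skin and 34.6, 40 and 38.3 CPM in water skin. It lay between the other groups: the log2 difference was 1.76 ± 0.50 from water (adjusted p = 0.0447) and -1.17 from PBS IMQ skin (adjusted p = 0.0473), and the first was lost under 11 of the 15 alternatives. Il1b, the inflammatory IL-1, had 6.65 to 23.8 CPM in anti-IL-12p40 skin, 34.4 to 128 CPM in PBS IMQ skin and 4.58, 2.18 and 5.24 CPM in water skin, with a log2 difference of 1.73 from water (adjusted p = 0.152) and -2.21 from PBS IMQ skin (adjusted p = 0.00881). Il1f5, the IL-36 receptor antagonist, had 454 to 688 CPM in anti-IL-12p40 skin and 439, 788 and 373 CPM in water skin (log2 difference 0.05, 95% interval -0.49 to 0.58). The IL-36 agonist gene Il1f6 had 0 counts in all 23 skin libraries, which allows up to 0.00764 CPM over all of them together. Reads were counted on mm10 and the labels give no allele, so this ceiling covers the annotated mouse gene only. Whether the model carries an altered Il1f6 locus was not tested. Il1f8, another agonist, was too low to test.

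Chemokine genes called against water were few and depended on single libraries. Of 16 monocyte and T cell chemokine genes tested, Ccl2 and Ccl7 were higher (12.5%). Of 9 neutrophil chemokine genes and factors, Pf4 and Ppbp were higher (22.2%). No member of either list was lower, and 4.8% of all genes were called. Ccl2, which draws monocytes, had 7.20 to 42.3 CPM in anti-IL-12p40 skin, 7.25 to 14.7 CPM in PBS IMQ skin and 2.34, 1.72 and 4.56 CPM in water skin (log2 fold change 2.32 ± 0.62; adjusted p = 0.0346). The highest value was replicate 5, and without that library, or without water replicate 1 or 2, 0 of the 16 and 0 of the 9 genes were called. Cxcl2, a ligand of the neutrophil receptor CXCR2 that was named with its values known, had 0.201 to 4.84 CPM in anti-IL-12p40 skin, 8.32 to 103 CPM in PBS IMQ skin and 0.872, 0.0662 and 0 CPM in water skin. It was lower than in PBS IMQ skin by 4.45 on the log2 scale (adjusted p = 0.00548) and did not pass against water (2.22, 95% interval -1.26 to 5.69).

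Cxcl13 and Ccl27a, of the homeostatic chemokines, moved in opposite directions. Cxcl13, which attracts B cells, had 9.97 to 131 CPM, median 40.5, in anti-IL-12p40 skin, 13.3 to 110 CPM in PBS IMQ skin and 0.599, 0.728 and 4.45 CPM in water skin (log2 fold change 4.63 ± 1.03; adjusted p = 0.0156), a call lost under 3 alternatives. Ccl27a, which keratinocytes make to hold T cells in skin, had 4.73 to 9.90 CPM, median 7.72, in anti-IL-12p40 skin, 3.15 to 5.87 CPM, median 4.34, in PBS IMQ skin, and 19.1, 29.4 and 29.2 CPM in water skin. It fell by 1.81 on the log2 scale from water (SE 0.24; adjusted p = 0.000487) and was called under all 15 alternatives. It was also higher than in PBS IMQ skin, by 0.73 (adjusted p = 0.0372). Its counts were not whole numbers in 10 of the 10 libraries, which is what RSEM gives where reads match more than 1 gene.

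Among lymphocyte genes the changes were in few members. Gzma, a granule protease of cytotoxic lymphocytes, had 1.55 to 6.69 CPM, median 2.71, in anti-IL-12p40 skin, 2.78 to 5.66 CPM in PBS IMQ skin and 0.109, 0.132 and 0.394 CPM in water skin (log2 fold change 3.97 ± 0.62; adjusted p = 0.00231), and was called under all 15 alternatives. Gzmb was the other of 12 cytotoxic genes called higher (1.76 ± 0.40, adjusted p = 0.0172), a call lost under 5 of the 15 alternatives. None of the 12 was lower, and the share called was 16.7%, against 4.8% over all genes. Fcrl5, an Fc receptor-like protein of B cells, had 0.949 to 10.7 CPM in anti-IL-12p40 skin, 2.37 to 17.1 CPM in PBS IMQ skin and no count in the 3 water libraries (adjusted p = 0.00916). Against a floor of 3 counts over those 3 libraries it was at least 70.5-fold higher under the antibody; the call was lost under limma-voom and without water replicate 1. With Cd79b and Cd22 it made 3 of 7 tested B cell genes higher and none lower (42.9%, against 4.8% over all genes). The median log2 fold change was 1.17, which does not change with Fcrl5 at its bound. Of the 7 B cell genes, 0 were called without water replicate 1 or under limma-voom, and 1 was called without water replicate 2 or with the compared groups alone. The B cell markers Ms4a1 and Cd79a were too low to test.

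T cell genes did not pass against water in either direction: 0 of 13 T cell markers and 0 of 10 regulatory T cell genes were called by edgeR and by DESeq2, while limma-voom called 1 T cell marker lower. At an unadjusted p under 0.05, 3 of the 13 were lower and 2 of the 10 were higher. Against PBS IMQ skin 8 of the 13 and 6 of the 10 were higher under the antibody and none was lower. Over all genes, 5.32% were higher and 3.49% lower in that comparison. Foxp3, the transcription factor of regulatory T cells, had 2.21 to 8.06 CPM, median 6.20, in anti-IL-12p40 skin, 1.47 to 2.34 CPM, median 1.73, in PBS IMQ skin, and 5.88, 5.56 and 10.8 CPM in water skin. Its log2 difference was 1.59 from PBS IMQ skin (adjusted p = 0.00164) and -0.39 from water (95% interval -0.99 to 0.21; adjusted p = 0.435). Foxp3 was named with its values known.

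Dendritic cell genes were the immune list with the most members lower than in water. Of 18 tested, Flt3, Xcr1, Clec9a, Cd209a and Siglech were lower and Sirpa, which macrophages also express, was higher. The share called was 33.3%, against 4.8% over all genes, and the median log2 fold change was -0.73. Xcr1, a chemokine receptor of cross-presenting dendritic cells, had 0.956 to 2.71 CPM in anti-IL-12p40 skin, 0.407 to 1.03 CPM in PBS IMQ skin and 4.74, 2.78 and 7.72 CPM in water skin. Its log2 difference was -1.44 ± 0.32 from water (adjusted p = 0.0160) and 1.13 from PBS IMQ skin (adjusted p = 0.0247). Flt3, the receptor for a growth factor of dendritic cells, had 2.69 to 5.05 CPM in anti-IL-12p40 skin, 1.34 to 2.91 CPM in PBS IMQ skin and 7.19, 5.82 and 12.5 CPM in water skin (-1.13 ± 0.25 from water; adjusted p = 0.0161). Siglech, a lectin of plasmacytoid dendritic cells, gave -1.64 ± 0.37 (adjusted p = 0.0166). Without water replicate 1, or without water replicate 3, 1 of the 18 was called lower.

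**Figure D4:**
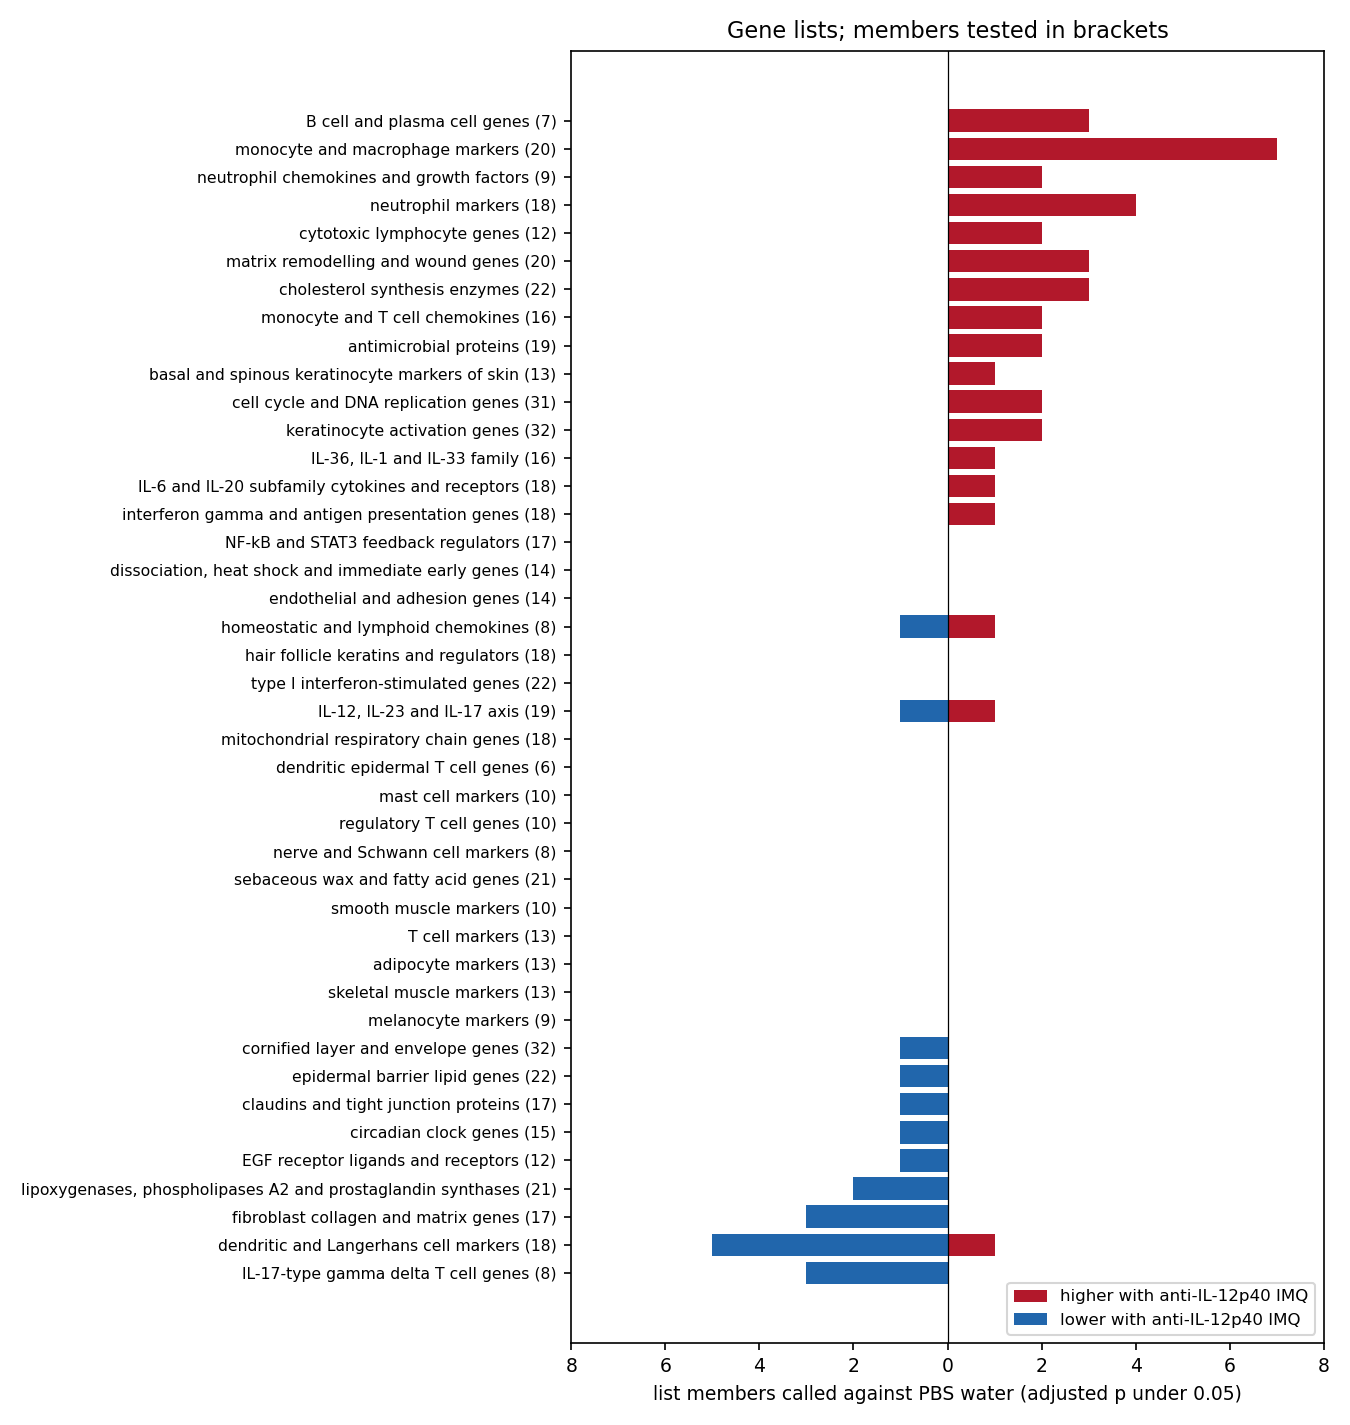
Number of members of each gene list called against water in anti-IL-12p40 skin, higher to the right and lower to the left, with the number tested in brackets. Monocyte and macrophage markers have the most higher (7 of 20) and dendritic and Langerhans cell markers the most lower (5 of 18).

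Of 32 keratinocyte activation genes tested against water, edgeR called Krt17 and Krt6a higher and none lower (6.25%, against 4.8% over all genes). The median log2 fold change of the list was 0.85. DESeq2's Wald test called 8 of the 32 higher, limma-voom 3, and edgeR 4 without anti-IL-12p40 replicate 2 and 0 without water replicate 1. At an unadjusted p under 0.05, 17 were higher and 0 lower. With the compared groups alone, with no filter, or without water replicate 3 or any of anti-IL-12p40 replicates 3 to 7, 1 was called. Against PBS IMQ skin 20 of the 32 were lower under the antibody and 1 was higher, where 3.49% of all genes were lower and 5.32% higher. The list's median in PBS IMQ skin against water was 1.99. Krt17, a stress keratin (chromosome 11, 100256215 to 100261029), had 1680 to 2460 CPM, median 2270, in anti-IL-12p40 skin, 1810 to 3140 CPM, median 2440, in PBS IMQ skin, and 1010, 1350 and 973 CPM in water skin. It was 1.96-fold higher than in water (log2 fold change 0.97 ± 0.20; adjusted p = 0.00926), a call lost without water replicate 1, and did not pass against PBS IMQ skin (-0.18; adjusted p = 0.480).

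Krt6a and Krt16 spread more than Krt17. Krt6a had 3940 to 13800 CPM in anti-IL-12p40 skin and 3200, 3250 and 996 CPM in water skin (1.69 ± 0.48; adjusted p = 0.0441), a call lost under 10 of the 15 alternatives. Krt16 had 4330 to 11700 CPM in anti-IL-12p40 skin and 4230, 4300 and 1340 CPM in water skin, with a log2 difference of 1.17 that did not pass (95% interval 0.40 to 1.95; adjusted p = 0.0686). Krt6a, Krt16 and Krt17 have near copies in the genome, so how reads were divided among them is uncertain. Sprr2e, a small proline-rich protein of the cornified envelope named with its values known, had 61.9 to 140 CPM in anti-IL-12p40 skin, 360 to 642 CPM in PBS IMQ skin and 66.7, 55.6 and 14.4 CPM in water skin. Its log2 difference was -2.11 from PBS IMQ skin (adjusted p = 0.00198) and 1.12 from water (adjusted p = 0.159).

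Of 32 tested genes of the cornified layer, 1 was called against water, Lce1m, which was lower (3.12%, against 4.8% over all genes). Its call was lost under 8 of the 15 alternatives. Without water replicate 2, 1 gene of the list was called higher and 0 lower. Flg2, a filaggrin-like protein of the barrier that was named with its values known, had 417 to 920 CPM, median 630, in anti-IL-12p40 skin, 25.3 to 123 CPM, median 40.6, in PBS IMQ skin, and 448, 1380 and 2000 CPM in water skin. Its log2 difference was 3.68 from PBS IMQ skin (adjusted p = 0.000552) and -0.97 from water (95% interval -2.06 to 0.12; adjusted p = 0.272). Of the list, 8 were higher and 1 lower than in PBS IMQ skin, where 5.32% of all genes were higher and 3.49% lower. The water libraries spanned a wider range of Flg2 than the anti-IL-12p40 libraries did.

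Single genes of late differentiation stayed well below water. Mt4, a metallothionein of stratified epithelium, had 0.632 to 5.75 CPM, median 1.12, in anti-IL-12p40 skin, 0.0606 to 1.22 CPM in PBS IMQ skin and 8.28, 24.4 and 21.9 CPM in water skin (log2 fold change -3.23 ± 0.66; adjusted p = 0.00916), and was called under all 15 alternatives. Alox12e, an epidermal lipoxygenase, had 7 to 39.8 CPM, median 32.6, in anti-IL-12p40 skin, 1.75 to 11.6 CPM in PBS IMQ skin and 121, 176 and 210 CPM in water skin. It lay between the other groups, at -2.59 ± 0.60 from water (adjusted p = 0.0187) and 1.95 from PBS IMQ skin (adjusted p = 0.0358), and its call against water was lost without water replicate 1 and without water replicate 3.

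Sebaceous gland genes gave 0 calls against water among 21 tested, by edgeR, DESeq2 and limma-voom, and 1 was higher at an unadjusted p under 0.05. In the test against PBS IMQ skin 12 of them were higher, as were 5.32% of all genes. Scd1, a fatty acid desaturase of sebocytes named with its values known, had 1410 to 3440 CPM in anti-IL-12p40 skin, 448 to 1400 CPM in PBS IMQ skin and 2770, 2830 and 4830 CPM in water skin. Its log2 difference was 1.58 from PBS IMQ skin (adjusted p = 0.00301) and -0.57 from water (95% interval -1.27 to 0.13). Hair follicle genes gave 0 calls of 18 against water by edgeR and by DESeq2 (1 higher and 2 lower at an unadjusted p under 0.05), while limma-voom called 3 lower, and without anti-IL-12p40 replicate 2 edgeR called 7 lower. Krt28, an inner root sheath keratin, shows the spread: replicate 2 had 40.3 CPM and the other 6 anti-IL-12p40 libraries 0.353 to 3.41 CPM, against 44.7, 30.6 and 1.80 CPM in water skin. Melanocyte genes, which follow the hair cycle, summed to 47.4 to 139 CPM in anti-IL-12p40 skin and 81.5 to 194 CPM in water skin; their part in the hair values was not tested.

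**Figure D5:**
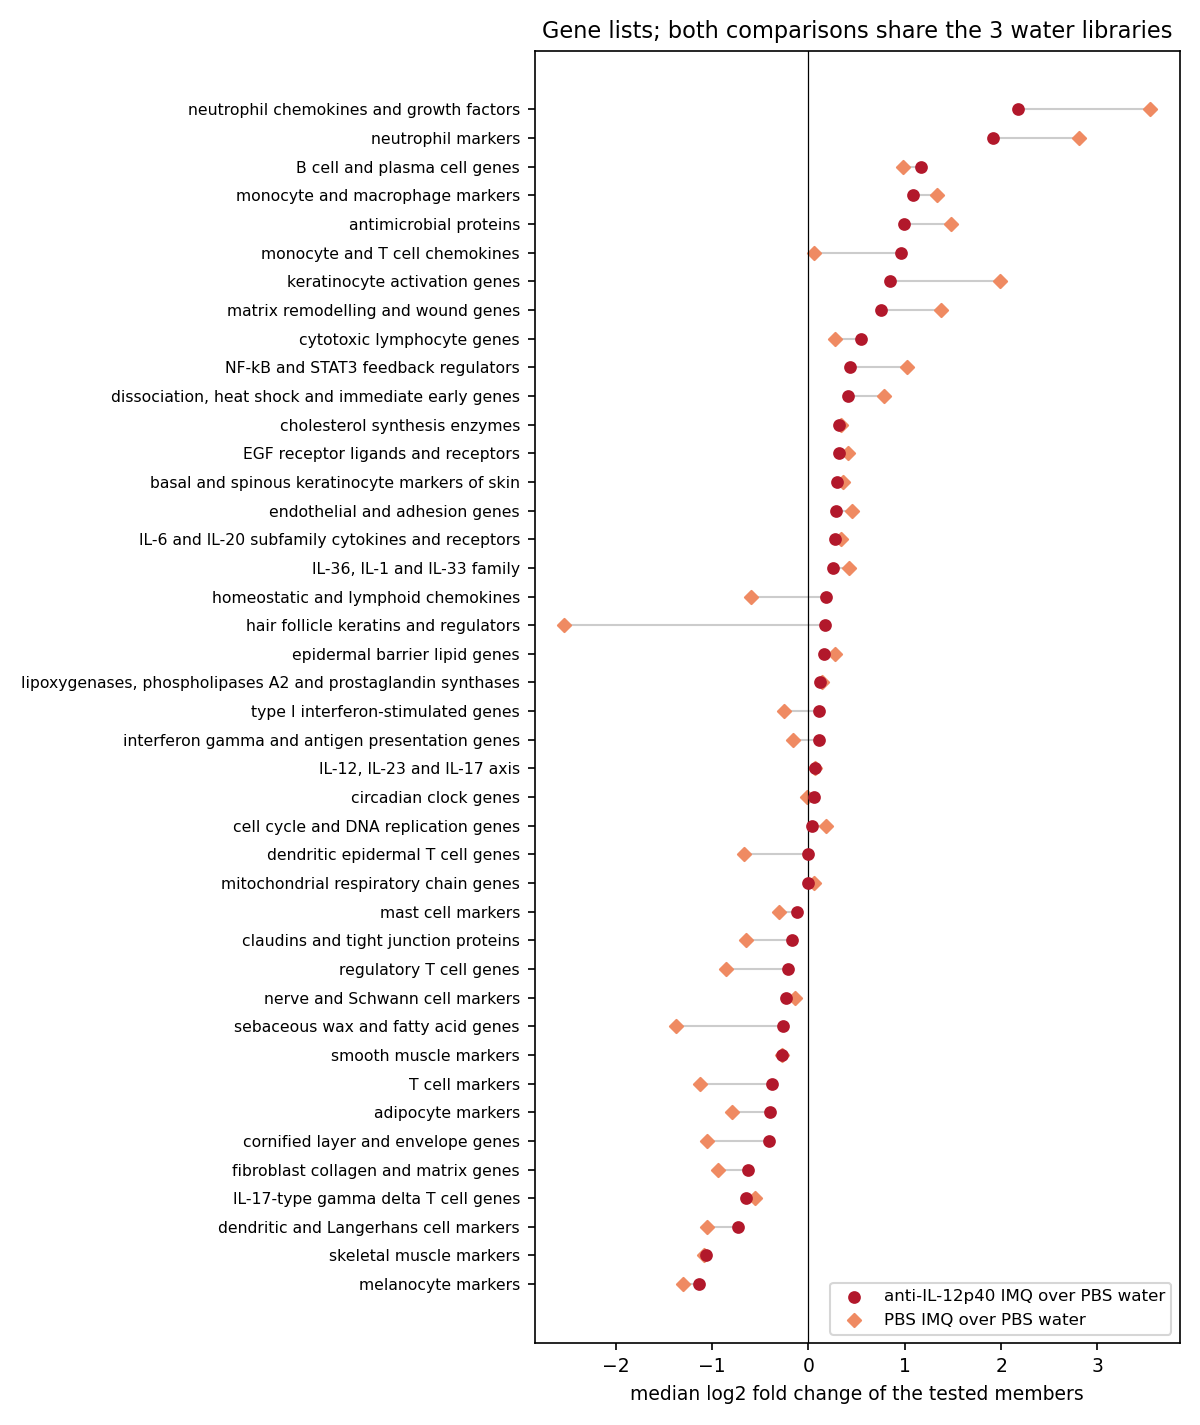
Median log2 fold change from water of the tested members of each list, in anti-IL-12p40 IMQ skin (circles) and PBS IMQ skin (diamonds). Both medians use the same 3 water libraries. Keratinocyte activation genes lie at 0.85 under the antibody against 1.99 in PBS IMQ skin, and sebaceous genes at -0.26 against -1.38, while monocyte and macrophage markers lie at 1.08 against 1.33.

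Type I collagen genes were lower than in water skin. Of 17 fibroblast collagen and matrix genes tested, Col1a1, Col1a2 and Sparc were lower and none was higher. The share called was 17.6%, against 4.8% over all genes, and the median log2 fold change was -0.63. Col1a2, a chain of type I collagen (chromosome 6, 4505618 to 4541543), had 1340 to 2420 CPM, median 1700, in anti-IL-12p40 skin, 943 to 2250 CPM, median 1580, in PBS IMQ skin, and 5970, 3500 and 3820 CPM in water skin. Its fold change from water was 0.402 (log2 -1.31 ± 0.26; adjusted p = 0.00865), and from PBS IMQ skin it differed by 0.10 on the log2 scale (adjusted p = 0.824). Without water replicate 1, 0 of the 17 were called, and without anti-IL-12p40 replicate 5, 1 was.

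Col16a1, a collagen named for its small p-value, held more firmly. It had 93.7 to 134 CPM in anti-IL-12p40 skin, 78.3 to 118 CPM in PBS IMQ skin and 255, 181 and 231 CPM in water skin (log2 fold change -1.03 ± 0.17; adjusted p = 0.00242), and was called under all 15 alternatives. Cpz, a carboxypeptidase of the extracellular matrix, had 5.47 to 9.63 CPM in anti-IL-12p40 skin against 35.4, 19.8 and 19.9 CPM in water skin (-1.72 ± 0.29; adjusted p = 0.00344), and was also called under all 15.

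Among 20 wound and remodelling genes tested, Tnc and Timp1 were called higher than in water, as were 2.41% of all genes. Tnc (chromosome 4, 63959785 to 64047015), a matrix protein laid down in healing and inflamed skin, had 759 to 1240 CPM, median 925, in anti-IL-12p40 skin, 419 to 1280 CPM, median 837, in PBS IMQ skin, and 372, 202 and 156 CPM in water skin. It was 3.80-fold higher than in water (log2 fold change 1.93 ± 0.39; adjusted p = 0.00865) under all 15 alternatives, and did not pass against PBS IMQ skin (0.14; adjusted p = 0.805). Timp1, an inhibitor of matrix proteases, had a log2 fold change of 1.72 and lost its call under 8 alternatives.

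Muscle genes were among the largest falls. Mb, which encodes myoglobin, had 7.84 to 27.5 CPM in anti-IL-12p40 skin, 6.45 to 18.6 CPM in PBS IMQ skin and 102, 83.0 and 76.8 CPM in water skin (log2 fold change -2.14 ± 0.47; adjusted p = 0.0154). Ky, Mylk4, Myoz3 and Myh8, all genes of striated muscle, were lower as well. Myh8 was called under all 15 alternatives. The call was lost under 1 alternative each for Mb and Ky, under 5 for Mylk4 and under 10 for Myoz3. Of 13 skeletal muscle markers 0 were called by edgeR and 0 by DESeq2 or limma-voom, though 11 were lower at an unadjusted p under 0.05. Their summed level was 900 to 4770 CPM in anti-IL-12p40 skin, 1400 to 3830 CPM in PBS IMQ skin and 3790 to 8410 CPM in water skin. The marker sum moved with these genes, and the part of muscle content in them was not tested.

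Hlf, a circadian transcription factor, was lower than in water in every library, with 5.16 to 7.37 CPM in anti-IL-12p40 skin, 4.83 to 8.89 CPM in PBS IMQ skin and 13.3, 15.3 and 11.6 CPM in water skin (log2 fold change -1.07 ± 0.20; adjusted p = 0.00573). It was the only one of 15 clock genes called (6.67%), and was called under all 15 alternatives. The cell cycle list gave 2 calls of 31 (6.45%), Mcm3 and Mcm4, helicase subunits, both higher. Cholesterol synthesis gave 3 of 22 (13.6%), Cyp51, Sc5d and Hsd17b7, all higher. Each of these 5 cell cycle and cholesterol calls was lost under at least 5 alternatives. Over all genes tested, 4.8% were called, so the clock and cell cycle shares lay near that level. Of 22 type I interferon-stimulated genes 0 were called by edgeR, DESeq2 or limma-voom, 4 were higher at an unadjusted p under 0.05, and the median log2 fold change was 0.11.

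Igf2bp3 was high in anti-IL-12p40 skin and low in PBS IMQ skin and water skin alike. The gene encodes an RNA-binding protein of the IGF2 mRNA-binding family, best known from embryonic tissue and tumours (chromosome 6, 49085218 to 49215469). It had 54.4, 51.5, 40.2, 56.9, 76.2, 49.9 and 58.7 CPM in the 7 anti-IL-12p40 libraries, 0.303 to 1.92 CPM in PBS IMQ skin, and 0.327, 0.529 and 1.46 CPM in water skin. All 7 libraries lay above every other skin library, since the anti-IL-36R libraries had 0.446 to 1.37 CPM. It was 70.4-fold higher than in water (log2 fold change 6.14 ± 0.44; adjusted p = 2.86e-08), and differed by 5.88 from PBS IMQ skin (adjusted p = 7.02e-11) and by 6.12 from anti-IL-36R skin (adjusted p = 1.08e-11).

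Its counts were not whole numbers in 10 of the 10 libraries, which is what RSEM gives where reads match more than 1 gene. Igf2bp2, of the same family and named with its values known, had 8.90 to 15.2 CPM in anti-IL-12p40 skin, 23.2 to 34.5 CPM in PBS IMQ skin and 7.19, 5.69 and 7.72 CPM in water skin. The noncoding 4930463O16Rik on chromosome 10, also named with its values known, followed the pattern of Igf2bp3, with 5.15 to 21.8 CPM in anti-IL-12p40 skin, 0.052 to 0.468 CPM in PBS IMQ skin, and 0.218, 0.265 and 0.113 CPM in water skin (log2 fold change 6.11 ± 0.49; adjusted p = 1.49e-07).

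Between the 2 antibodies only 7 genes were called (0.0456%), with 814 at an unadjusted p under 0.05. Igf2bp3, 4930463O16Rik, Gm5779, Krt13 and Gcn1 were higher under anti-IL-12p40, and Il17f and 5830411N06Rik lower. Il17f had 0.283 to 1.02 CPM in anti-IL-12p40 skin and 1.21 to 9.02 CPM in anti-IL-36R skin (log2 difference -2.65; adjusted p = 0.0175).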

How the data were processed

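Skin mRNA was extracted with MagMAX reagents, purified on Dynabeads and made into ScriptSeq stranded libraries, per the labels' protocols. The deposited skin table holds expected counts per gene, made by the authors with RSEM on mm10, per the submitters' processing notes; versions, annotation, filters and strand settings are not given in the sources used here. Of its values, 16.71% were not whole (tolerance 1e-09), and these were rounded. Of 24475 gene IDs, 24375 matched a symbol in RefSeq (GRCm38.p6), which also gave coordinates and promoter windows.

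The 23 skin libraries in 4 groups, taken from the treatment labels, were fitted together in edgeR 4.0.16 (R 4.3.3) with filterByExpr, TMM scaling and the quasi-likelihood F test, leaving 15345 genes, with Benjamini-Hochberg adjustment over all of them. Every adjusted p in the text comes from this fit unless another tool is named beside it. The standard error is the log2 fold change over the root of F, and intervals are 95%. CPM use TMM-scaled totals. No pair of libraries was alike within sampling noise. The common biological coefficient of variation was 0.201. The intervals of log2 fold changes include the spread between libraries, while floors of 3 counts cover counting error only.

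Alternatives were DESeq2 1.42.0 (size factors, and its own Wald test), limma-voom 3.58.1 with sample weights, no filter, the compared groups alone, PBS IMQ replicates 1 to 3 or 4 to 6 alone, and leaving out each library. Colon libraries were not used here.

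The groups, the 42 gene lists and 24 cytokine genes were chosen with earlier results of these data known. Genes were named by rule: the 10 largest and the 10 most significant rises and falls among called genes of at least 2-fold and mean log2 CPM of at least 1 (without clone-named genes, pseudogenes, Y-linked genes and Xist), up to 4 genes of smallest p per list, and the cytokine genes; exceptions are stated. Results for some genes are not reported here.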

Additional observations from a re-analysis of the deposited data

Results flagged for a closer look

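Among the 222 genes named by rule or with values known, 15 had 1 anti-IL-12p40 library whose gap to the nearest of the other 6 exceeded Dixon's critical value of 0.568 of the group's range. Chance flags about 1 in 20 such groups, which would be 11.1 of them. Replicate 5 held 7 of the 15. It was the highest library for Slc13a3 (523 CPM against 31.3 to 80.2 in the other 6), Pilra (15.8 against 5.70 to 8.62), Ppbp (1.58 against 0.350 to 0.565), Ccl2 (42.3 against 7.20 to 14.4), Ccl7 (65.0 against 8.72 to 20.8) and Fos (106 against 17 to 31.7), and the lowest for S100b (0.474 against 1.05 to 1.55). Slc13a3, a transporter of dicarboxylates, was called against water at a log2 fold change of 5.92 with that library included (adjusted p = 0.00540, edgeR) and was still called without it, at 4.82, while limma-voom did not call it (adjusted p = 0.105).

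Replicate 2 was apart for Msx2, a hair follicle regulator (10.5 CPM against 1.61 to 2.76), Tyrp1, a pigment enzyme (25.6 against 6.22 to 10.3), and Nrep (18.3 against 22.3 to 25.3). Replicate 4 was apart for Il1f9 (1.36 CPM against 2.47 to 3.53), Cd22 (4 against 1.45 to 2.15) and 4930463O16Rik (5.15 against 12.4 to 21.8). Replicate 3 was highest for Il17f (1.02 CPM against 0.283 to 0.451) and replicate 6 for Itm2a (14.2 against 8.42 to 10.3).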

How the results depend on the processing

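Against water the count of called genes was 737. DESeq2's Wald test gave 1305 and the compared groups alone 477, and leaving out 1 library gave 123 (without water replicate 1) to 1155 (without anti-IL-12p40 replicate 2). It was 461 without water replicate 2 (173 higher, 288 lower), 470 without water replicate 3 (289 higher, 181 lower), 434 without anti-IL-12p40 replicate 5 and 441 without replicate 7. DESeq2 size factors (767), limma-voom (742, of which 303 higher and 439 lower) and no filter (607) stayed within 1.5 times of it. Against PBS IMQ skin the count was 1351. It was 2677 with limma-voom, 437 with PBS IMQ replicates 1 to 3 alone and 234 with replicates 4 to 6 alone, and leaving out 1 library gave 750 (without anti-IL-12p40 replicate 1) to 1815 (without replicate 7), with 757 without anti-IL-12p40 replicate 2, 864 without PBS IMQ replicate 2 and 862 without PBS IMQ replicate 5. Fewer libraries enter the fits that leave some out; for the other shifts the cause was not tested. Of the 205 genes named by rule, 79 were called against water; 23 of these were called under all 15 alternatives and 56 were lost under at least 1. Of the 126 not called, 38 were gained under at least 1, and 0 of the 205 changed direction while called. No paired analysis was possible because the replicate numbers follow the order of the samples and mark no shared animal, litter or day. With 3 water libraries, 1 library can decide a call, and cytokines with few counts cannot show small changes.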
